A study of Mus musculus with 6 samples.

Results

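The genes described are 10 of the 24940 in the deposited expression table: the platelet-activating factor (PAF) hydrolase gene Pla2g7, the phospholipase gene Pla2g4a, 4 leukotriene genes (Alox5, Alox5ap, Lta4h and Ltc4s) and 4 prostanoid genes (Ptgs1, Ptgs2, Ptges and Hpgds). They were taken by symbol, and the group was put together because Pla2g7 was high after treatment with a leaf extract. The difference between RANKL-treated cells with and without the extract is therefore given here as a description, without p-values, and so are all differences of Pla2g7. Of the 10 genes, 8 passed the filter on low values (a mean of at least 0.5 RPKM, reads per kilobase of transcript scaled to the mapped reads of the library, over the 6 libraries), and Ptgs2 and Ptges fell just below it.

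RNA was sequenced from mouse bone marrow-derived macrophages, primary cells grown from marrow that serve as osteoclast precursors. All cultures received M-CSF at 30 ng/mL, the growth factor that keeps these precursors alive, and were treated for 3 days. The control group (-R) received no RANKL, the +R group received RANKL at 100 ng/mL, the cytokine that drives precursors to become osteoclasts, and the R+LE group received the same RANKL with LE, a methanol extract of the leaves of Abeliophyllum distichum, at 10 μg/mL. Each group had 2 libraries. The labels name C57BL/6 mice aged 6 to 8 weeks, whereas the study's methods name male ICR mice, and no source used here says whether the 2 libraries of a group came from separate cultures or animals. The p-values therefore measure only the spread between libraries, which may be technical. In bulk RNA of this kind, fewer cells of a type and less RNA per cell cannot be told apart.

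Eicosanoids are short-lived lipid signals made from arachidonic acid, which cytosolic phospholipase A2 cuts from membrane lipids. One branch runs through 5-lipoxygenase and its activating protein to the leukotrienes, which attract and activate leukocytes, and the other through the cyclooxygenases to prostaglandins and thromboxane. PAF, a related phospholipid mediator, is inactivated by the secreted hydrolase that Pla2g7 encodes. Macrophages make all of these lipids, and prostaglandin E2 is known as a regulator of bone turnover.

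The sequences around the start sites of 3 of the genes are shown because these genes stand for the 3 patterns described below: Pla2g7 high in R+LE, Ptgs1 higher at each step, and Hpgds lowered by RANKL and low in both treated groups. They come from RefSeq (build GRCm38.p6, the mm10 genome), span 250 bases before to 50 bases after the start, and read 5′ to 3′ on the strand of the gene. The regions are chr17:43568201-43568500 on the plus strand for Pla2g7, chr2:36230176-36230475 on the plus strand for Ptgs1 and chr6:65144681-65144980 on the minus strand for Hpgds. Capitals mark the antioxidant response element letters in Pla2g7 and the PU.1 letters in Ptgs1 and Hpgds.
Pla2g7: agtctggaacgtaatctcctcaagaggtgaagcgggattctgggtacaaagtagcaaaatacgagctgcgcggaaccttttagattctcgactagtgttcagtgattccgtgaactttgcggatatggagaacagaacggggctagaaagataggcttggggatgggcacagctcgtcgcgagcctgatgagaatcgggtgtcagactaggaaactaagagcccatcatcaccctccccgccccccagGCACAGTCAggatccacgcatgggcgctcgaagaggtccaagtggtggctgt
Ptgs1: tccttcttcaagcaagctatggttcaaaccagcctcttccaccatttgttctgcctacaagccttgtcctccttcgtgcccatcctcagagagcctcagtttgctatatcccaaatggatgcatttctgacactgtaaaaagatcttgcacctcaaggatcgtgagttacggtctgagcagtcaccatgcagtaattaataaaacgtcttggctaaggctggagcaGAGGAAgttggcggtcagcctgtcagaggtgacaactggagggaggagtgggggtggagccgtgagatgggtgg
Hpgds: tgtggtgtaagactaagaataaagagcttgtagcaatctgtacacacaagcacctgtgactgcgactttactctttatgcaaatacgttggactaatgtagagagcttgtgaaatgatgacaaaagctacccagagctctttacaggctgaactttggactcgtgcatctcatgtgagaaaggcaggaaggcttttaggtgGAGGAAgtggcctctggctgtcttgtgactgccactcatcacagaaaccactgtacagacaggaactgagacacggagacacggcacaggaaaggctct
The letters searched on both strands were TGACNNNGC (the antioxidant response element, bound by Nrf2), TGANTCA (AP-1) and GAGGAA (PU.1, the factor that defines the myeloid lineage). The letters of the first pair of motifs can overlap within a longer site, and all 3 were picked with the results known. A promoter starting where the deposited transcript starts was found for 9 of the 10 genes, the exception being Alox5ap. The PU.1 letters were present in 7 of these 9, against 28.3% of all 32817 promoters of the same length. They lay 24 bases before the start of Ptgs1 and 49 bases before that of Hpgds. The antioxidant response element letters were present in Pla2g7 alone, as GCACAGTCA on the other strand beginning 2 bases before the start, against 12.4% of all promoters. None of the 9 held the AP-1 letters, which 7.81% of all promoters did. A match of letters is a description of the sequence and not evidence of a bound site.

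Mapped reads per library, recovered from the whole-read steps of the RPKM values, ranged from 29390259 to 34846192, and 3 reads on a transcript of 1 kb corresponded to between 0.0861 and 0.102 RPKM. Between 74.2% and 80.7% of mapped reads lay on genes, lowest in R+LE replicate 2, and the ribosomal RNA entry Rn45s held 4.97% to 13.5% of these, also highest in R+LE replicate 2. Replicate 2 was the lower library for 8 of the 10 genes in +R and for 9 of 10 in R+LE, against 1 of 10 in -R. The share of all genes lower in replicate 2 was not counted, so these counts are not read as particular to the 10 genes. No call for any of the 8 genes tested changed when values were scaled to the reads on genes without Rn45s. All 7 osteoclast markers (such as Acp5 and Ctsk) rose with RANKL, from a summed level of 40.3 to 41.2 RPKM in -R to 1718 to 1947 RPKM in +R, and the sum was 300.7 to 343.5 RPKM in R+LE. The 6 macrophage markers summed to 6389 to 7004 RPKM in -R, 2606 to 3349 RPKM in +R and 3630 to 4044 RPKM in R+LE. Most of this sum was Lyz2 (means of 5317, 2132 and 3060 RPKM), and others ran in another order, such as Cd68 with 771.1, 444.9 and 336.5 RPKM and Itgam with 70.5, 90.2 and 104.2 RPKM.

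**Figure D1:**
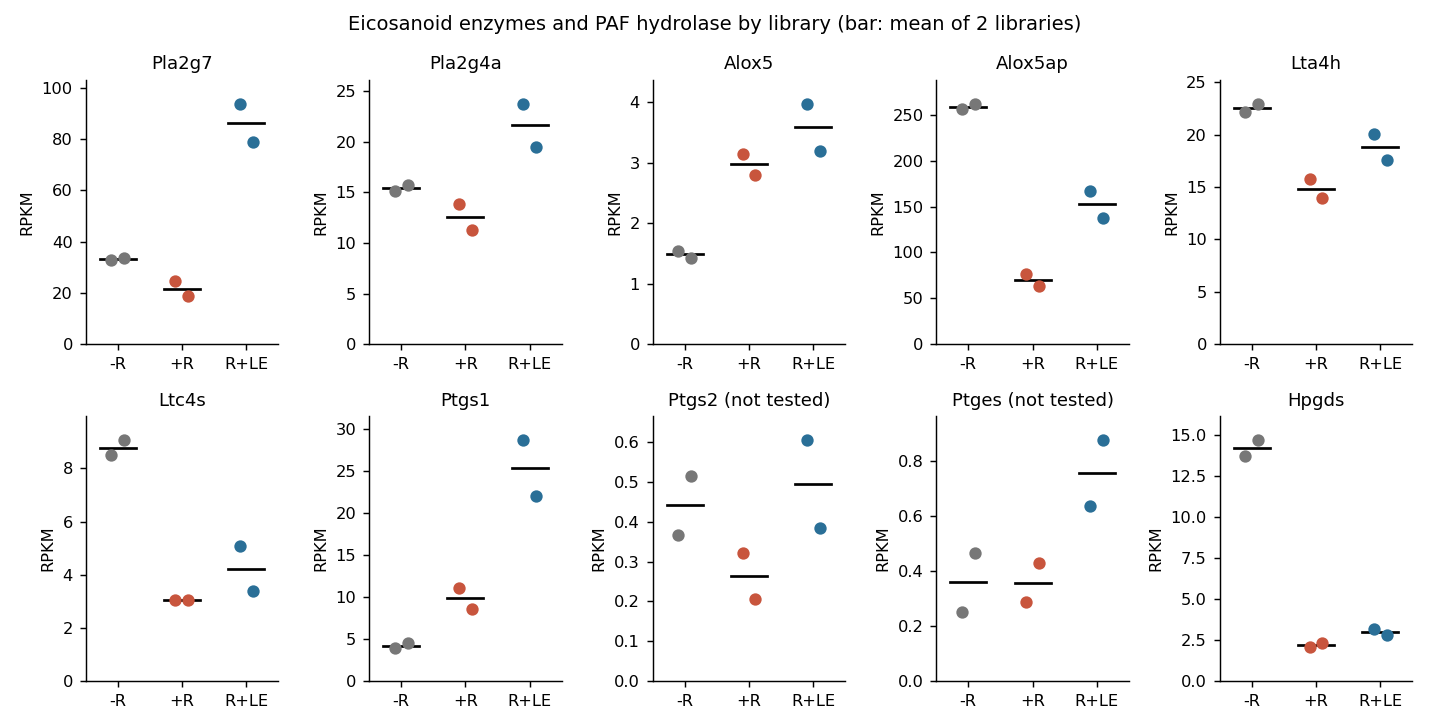
RPKM of each of the 10 genes (vertical axes, each from 0) in the 2 libraries of -R, +R and R+LE (points), with the mean of the group as a bar. The place of -R differs between genes: Alox5ap, Lta4h, Ltc4s and Hpgds are highest in -R, and Alox5 and Ptgs1 are lowest there. R+LE against +R is the contrast that chose the group, so nothing is read from the order of those groups.

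Pla2g7 and Pla2g4a are described first, for the removal of PAF and the release of arachidonic acid. Pla2g7 (NM_013737, chr17:43568451-43612201, plus strand) encodes the lipoprotein-associated hydrolase that breaks down PAF and oxidised phospholipids. Its level was 32.6 and 33.7 RPKM in the -R libraries, 24.5 and 18.7 RPKM in +R, and 93.7 and 78.8 RPKM in R+LE. The 3 groups did not overlap, with +R lowest and R+LE highest. The mean of R+LE was 3.99 times that of +R (86.2 ± 10.6 against 21.6 ± 4.06 RPKM, SD, n = 2), and 2.60 times that of -R (33.2 ± 0.774 RPKM). On the log2(RPKM + 0.5) scale, which understates changes of low genes, the differences were 1.98 ± 0.16 (SE) and 1.36 ± 0.16. These are the values that chose the gene, and they carry no test. The log2 difference of +R from -R was -0.62 ± 0.16, less than a 2-fold change, and it carries no test either, since the low level in +R is part of the difference that chose the gene.

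The reads of Pla2g7 were counted on either strand, and 140 nt of its exons, or 6.68%, overlap the antisense gene 1700071M16Rik in the GENCODE annotation. That gene held 6.36% to 8.14% as many reads as Pla2g7 in each library. Taking all of its reads away from Pla2g7 left means of 30.9 RPKM for -R, 19.9 RPKM for +R and 79.9 RPKM for R+LE, and a ratio of R+LE to +R of 4.03.

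Pla2g4a (NM_008869, chr1:149829619-149961290, minus strand) encodes cytosolic phospholipase A2, which releases arachidonic acid for both branches. It measured 15.2 and 15.7 RPKM in -R, 13.9 and 11.3 RPKM in +R, and 23.8 and 19.5 RPKM in R+LE. The R+LE libraries were the highest and the +R libraries the lowest, without overlap. The difference of +R from -R was -0.29 ± 0.15 on the log2 scale, with an adjusted p of 0.131 by limma with Benjamini-Hochberg adjustment. R+LE was 0.76 ± 0.15 above +R and 0.47 ± 0.15 above -R on the same scale, and the latter had an adjusted p of 0.0255 in the same limma fit, below the 2-fold change required for a call.

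Of the 4 leukotriene genes, Alox5ap and Ltc4s fell with RANKL, and Alox5 and Lta4h were not called in that comparison. Alox5 (NM_009662, chr6:116410071-116461178, minus strand), which encodes 5-lipoxygenase, had the lowest mean of the 4 in each group per length of transcript, at 1.55 and 1.43 RPKM in -R, 3.15 and 2.80 RPKM in +R, and 3.98 and 3.20 RPKM in R+LE. Both RANKL-treated groups lay above -R, and the lower R+LE library lay close to the higher +R library. The difference of +R from -R was 0.81 ± 0.16 on the log2 scale (limma, Benjamini-Hochberg adjusted p = 0.000935), below a 2-fold change on that scale. R+LE was 1.03 ± 0.16 above -R (adjusted p = 0.00016 in the same limma fit) and was called higher. This call rested on the edge of the 2-fold limit on that scale. The difference was 0.99 without -R replicate 2 and 0.90 without R+LE replicate 1. With 0.1 or 1 RPKM added in place of 0.5 RPKM, it was 1.21 or 0.88. The mean RPKM of R+LE was 2.41 times that of -R. R+LE stood only 0.23 ± 0.16 above +R.

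Alox5ap (NM_009663, chr5:149265004-149288153, plus strand) encodes the 5-lipoxygenase-activating protein, which hands arachidonic acid to the enzyme. It was the most abundant of the 10 genes per length of transcript, at 255.8 and 262.0 RPKM in -R, 76.2 and 63.9 RPKM in +R, and 166.8 and 137.7 RPKM in R+LE. The groups did not overlap, and R+LE lay between the others. Alox5ap fell 3.69-fold with RANKL (log2 difference -1.88 ± 0.16, limma, Benjamini-Hochberg adjusted p = 1.91e-07). In R+LE its mean was 2.17 times that of +R (log2 difference 1.11 ± 0.16), and on the log2 scale this was 59.1% of the difference between -R and +R. The log2 difference was 0.99 without +R replicate 2 and 0.98 without R+LE replicate 1, both just short of a 2-fold change. R+LE was 0.77 ± 0.16 below -R on the log2 scale, with an adjusted p of 0.00185 by limma and short of a call. An antisense gene, Gm19719, overlaps 15.1% of its exon length and was not measured in the table, so its reads cannot be told apart from those of Alox5ap.

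For the enzymes that act on the lipoxygenase product, the differences between R+LE and +R were smaller than that of Alox5ap. Lta4h (NM_008517, chr10:93453396-93484896, plus strand), which makes leukotriene B4, measured 22.1 and 22.9 RPKM in -R, 15.7 and 14.0 RPKM in +R, and 20.04 and 17.6 RPKM in R+LE. Its log2 difference of +R from -R was -0.59 ± 0.14 (limma, Benjamini-Hochberg adjusted p = 0.00285), which did not reach 2-fold, and that of R+LE from -R was -0.26 ± 0.14 (adjusted p = 0.172). Ltc4s (NM_008521, chr11:50236461-50238532, minus strand), which joins glutathione to form leukotriene C4, measured 8.49 and 9.05 RPKM in -R, 3.04 RPKM in both +R libraries, and 5.09 and 3.37 RPKM in R+LE. Its mean RPKM in +R was 0.3468 times that in -R. On the log2(RPKM + 0.5) scale Ltc4s fell 2.62-fold with RANKL (log2 difference -1.39 ± 0.17, limma adjusted p = 7.73e-06). The R+LE libraries of Ltc4s lay far apart, so its log2 difference from +R, 0.39 ± 0.17, was 0.13 without R+LE replicate 1 and 0.66 without R+LE replicate 2. Against -R, R+LE of Ltc4s was lower by a log2 difference of -0.99 ± 0.17 (limma adjusted p = 0.000292), next to the 2-fold limit, and it passed that limit without R+LE replicate 1, at -1.26, and without -R replicate 1, at -1.04. The exons of Ltc4s overlap an antisense gene, Gm26542, over 29.6% of their length, and reads from the other strand cannot be told apart.

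Among the prostanoid genes, the cyclooxygenase gene Ptgs1 and the prostaglandin D2 synthase gene Hpgds moved in opposite directions from -R, in both +R and R+LE. Ptgs1 (NM_008969, chr2:36230426-36252271, plus strand) encodes cyclooxygenase-1, which makes the common precursor of all prostanoids. Its levels were 3.90 and 4.50 RPKM in -R, 11.1 and 8.56 RPKM in +R, and 28.6 and 22.1 RPKM in R+LE. Each group lay wholly above the one before it. Ptgs1 rose with RANKL by 1.13 ± 0.16 on the log2 scale (limma, Benjamini-Hochberg adjusted p = 4.75e-05), a difference of 0.95, short of 2-fold, without +R replicate 1. The mean of R+LE was 2.58 times that of +R, with a log2 difference of 1.32 ± 0.16. Against -R, R+LE was higher by 2.45 ± 0.16 (limma adjusted p = 2.16e-08), with means of 25.3 ± 4.66 and 4.20 ± 0.421 RPKM (SD, n = 2). The unmeasured gene Gm43621 lies opposite 5.16% of the exon length of Ptgs1.

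Hpgds (NM_019455, chr6:65117293-65144730, minus strand) encodes the haematopoietic prostaglandin D synthase. It measured 13.7 and 14.7 RPKM in -R, 2.08 and 2.34 RPKM in +R, and 3.15 and 2.79 RPKM in R+LE. Both treated groups lay far below -R, and R+LE lay slightly above +R without overlap. Hpgds fell 5.43-fold with RANKL (log2 difference -2.44 ± 0.14, limma, Benjamini-Hochberg adjusted p = 2.51e-09), the largest fall of the 8 genes tested. It was still lower in R+LE than in -R, by a log2 difference of -2.08 ± 0.14 (adjusted p = 2.76e-08 in the same limma fit). R+LE stood 0.36 ± 0.14 above +R on the log2 scale, 14.6% of the difference between -R and +R on that scale.

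Ptgs2, which encodes the inducible cyclooxygenase-2, and Ptges, which encodes the microsomal prostaglandin E synthase, were low in every library and were not tested. Ptgs2 (NM_011198, chr1:150100031-150108234, plus strand) held 48 and 80 reads without RANKL, 44 and 28 reads with it, and 85 and 52 reads with RANKL and LE, or 0.205 to 0.605 RPKM. The libraries of R+LE and -R overlapped. Ptges (NM_022415, chr2:30889471-30903297, minus strand) held 27 and 59 reads without RANKL, 32 and 48 reads with it, and 73 and 97 reads with RANKL and LE, or 0.252 to 0.875 RPKM. Its +R and -R libraries overlapped, and both R+LE libraries lay above the other 4. Per length of transcript, Ptgs1 was the more abundant cyclooxygenase gene in all 6 libraries.

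**Figure D2:**
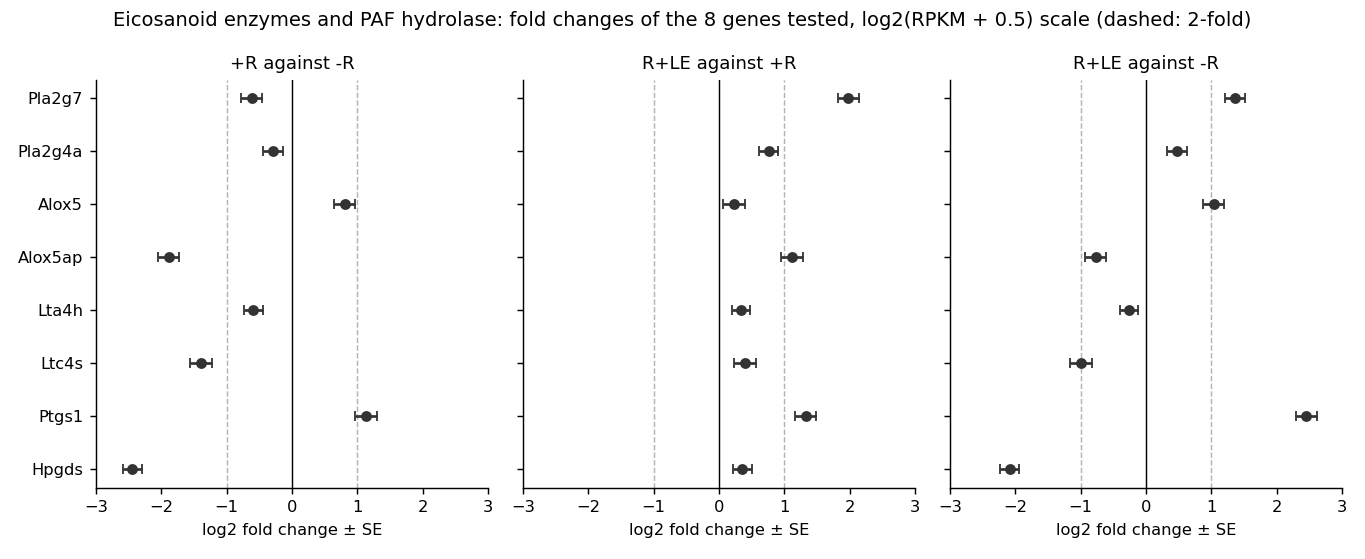
Log2 fold changes (horizontal axes, log2(RPKM + 0.5) scale) of the 8 genes tested in 3 comparisons, with bars for the SE of the limma fit and dashed lines at a 2-fold change. With RANKL the values run from -2.44 for Hpgds to 1.13 for Ptgs1, and the third panel runs from -2.08 for Hpgds to 2.45 for Ptgs1. Between R+LE and +R they run from 0.23 for Alox5 to 1.98 for Pla2g7. That contrast chose the group, so its panel is a description and no test.

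Counted over the 8 genes that passed the filter, RANKL alone changed 4 at an adjusted p under 0.05 and a change of at least 2-fold. Ptgs1 rose and Alox5ap, Ltc4s and Hpgds fell, where 15.5% of all 11595 genes tested were called, 6.58% higher and 8.92% lower. The median log2 difference was -0.60, against 0.05 over all genes tested. In R+LE against +R, 3 genes met the same limits, all higher (Pla2g7, Alox5ap and Ptgs1), where 3.23% of all genes did, 1.46% higher and 1.78% lower. This contrast chose the group, so the limits are no test of these genes and nothing is read from that count. In R+LE against -R, where 10.3% of all genes were called (3.92% higher and 6.36% lower), 3 of the 7 genes other than Pla2g7 were called: Alox5 and Ptgs1 higher and Hpgds lower. The comparisons share libraries, so they are not independent of one another. With 2 libraries a group, an exact permutation test of a single gene could not give a two-sided p below 0.333, and the smaller values rest on the spread that limma shares across genes.

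**Figure D3:**
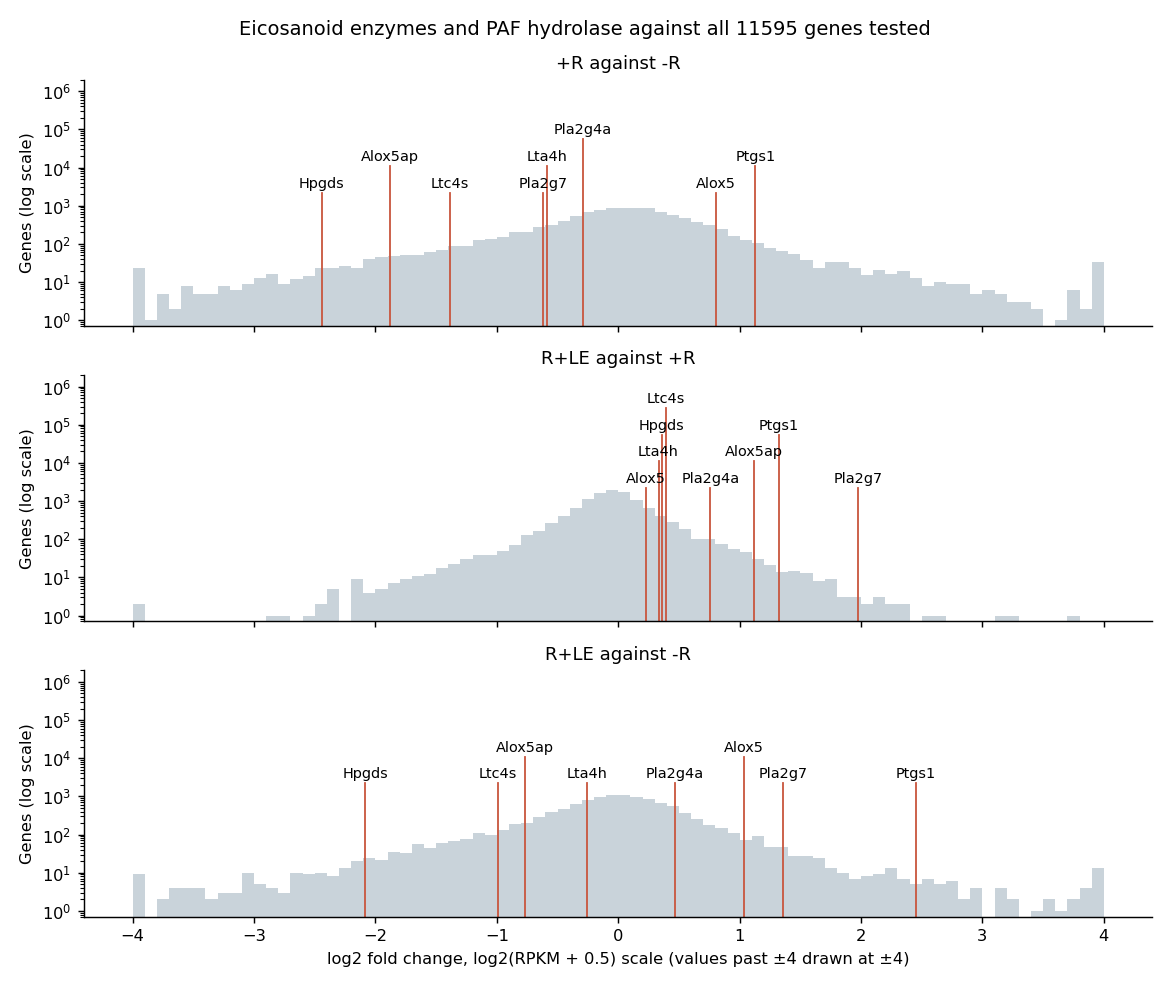
Histograms of the log2 fold changes (horizontal axis) of all 11595 genes tested in the 3 comparisons, with the number of genes on a log axis and the 8 genes as labelled lines whose height has no meaning. In R+LE against +R the 8 lines lie between 0.23 and 1.98, and in the other comparisons they lie on both sides of 0. R+LE against +R is the contrast that chose the group, so the place of its lines is no test.

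Markers of other marrow cells that express some of these genes were read beside the genes that fell with RANKL. Mast cells are known for Hpgds and Ltc4s. In these libraries 7 of 8 mast cell markers had 3 reads or fewer in every library, Cpa3, Mcpt4, Tpsb2, Cma1, Fcer1a and Ms4a2 had none, and the list summed to at most 0.15 RPKM. The 8 neutrophil markers summed to 16.1 to 18.2 RPKM in -R, 0.66 to 0.816 RPKM in +R and 0.564 to 2.53 RPKM in R+LE, and S100a8 fell with RANKL. S100a9 was also called lower, but it passed the filter only through -R, with 90 and 81 reads there and none in the other libraries. The 5 megakaryocyte markers summed to 120.0 to 124.1, 6.00 to 8.75 and 12.8 to 18.4 RPKM. Nearly all of that sum was Pf4, which macrophage precursors are also known to express, while the other 4 were each below 0.6 RPKM. T cell markers summed to at most 0.852 RPKM and B cell markers to at most 1.96 RPKM, both highest in -R. The 5 stromal markers summed to 14.8 to 16.3, 10.3 to 14.6 and 7.63 to 8.73 RPKM in the same order of groups. The part of mast cells, neutrophils, megakaryocytes, lymphocytes and stromal cells in the levels of the 10 genes was not tested.

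The rest of the pathway was read from a list of 71 other eicosanoid and PAF genes in the table, chosen by function with earlier results of these data known. Of these, 36 were tested, 35 were below the filter and 13 of those had 3 reads or fewer in every library. RANKL raised 4 and lowered 9 of the 36, with a median log2 difference of -0.23. In R+LE against +R, 3 were called higher and 3 lower, with a median of 0.10, and in R+LE against -R 4 were called higher and 7 lower, with a median of -0.02. The shares of all genes called were the 15.5%, 3.23% and 10.3% given above. By direction they were 6.58% higher and 8.92% lower with RANKL. They were 1.46% and 1.78% in R+LE against +R, and 3.92% and 6.36% in R+LE against -R. Ephx2, which passed the filter only through +R, is among the 4 raised by RANKL and the 3 lower in R+LE than in +R. Pla2g2e, which passed it only through -R, is among the 9 lowered by RANKL and the 7 lower in R+LE than in -R. Of the 6 other lipoxygenase genes none reached the mean of 0.5 RPKM needed for a test.

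**Figure D4:**
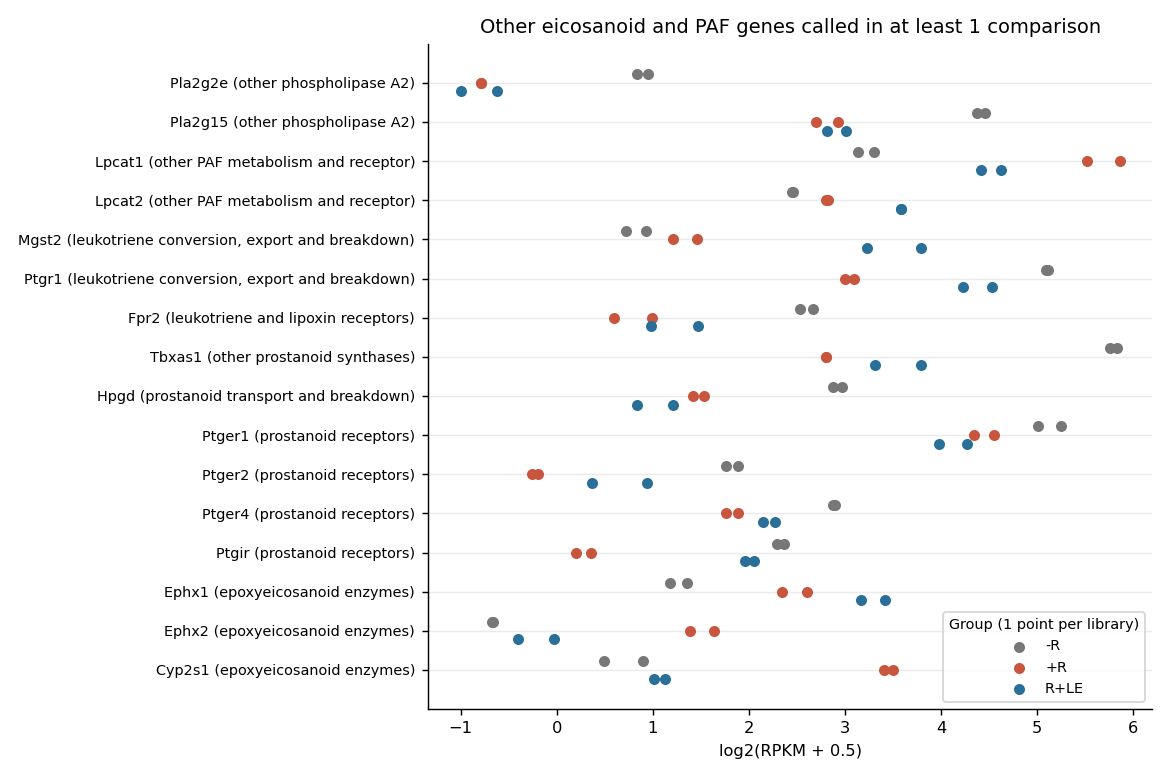
Levels on the log2(RPKM + 0.5) scale (horizontal axis) of the 16 other eicosanoid and PAF genes called in at least 1 comparison, with 1 point per library coloured by group and the sub-list of each gene in brackets. Tbxas1, Ptgr1, Ptgir and Ptger2 are highest in -R, Lpcat1, Ephx2 and Cyp2s1 are highest in +R, and Mgst2, Lpcat2 and Ephx1 are highest in R+LE.

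Beside Pla2g7, the list held 7 other genes of PAF metabolism and its receptor, all tested. Lpcat1, a lung-type lysophospholipid acyltransferase, measured 9.37 and 8.27 RPKM in -R, 57.5 and 45.5 RPKM in +R and 24.3 and 20.9 RPKM in R+LE, and rose with RANKL by 2.47 ± 0.15 on the log2 scale (limma, Benjamini-Hochberg adjusted p = 4.69e-09). Lpcat2, the acyltransferase that makes PAF in activated macrophages, measured 4.96 and 5.01, 6.47 and 6.57, and 11.5 and 11.5 RPKM in the same groups, and was higher in R+LE than in -R by 1.13 ± 0.13 (limma adjusted p = 8.38e-06). Lpcat1 was thus highest in +R, and Lpcat2, like Pla2g7, was highest in R+LE. An antisense gene overlaps 10.2% of the exon length of Lpcat2. Of 17 other phospholipase A2 genes 5 were tested. Pla2g15, the lysosomal enzyme, was lower than in -R in both treated groups, with 20.3 and 21.5 RPKM in -R, 7.13 and 5.98 RPKM in +R and 7.59 and 6.54 RPKM in R+LE (limma adjusted p = 2.78e-07 for +R). The secreted Pla2g2e was called lower in both, but it passed the filter only through -R, with 32 and 42 reads there and at most 4 in any other library.

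Beside the leukotriene genes, Mgst2, a microsomal glutathione transferase that can also form leukotriene C4, measured 1.14 and 1.40 RPKM in -R, 2.25 and 1.81 RPKM in +R and 13.3 and 8.89 RPKM in R+LE. It was higher in R+LE than in -R by 2.69 ± 0.19 on the log2 scale (limma, Benjamini-Hochberg adjusted p = 3.31e-08), where Ltc4s was lower. Ptgr1, which inactivates leukotriene B4 and prostaglandins, measured 34.1 and 33.6 RPKM in -R, 8.05 and 7.50 RPKM in +R and 22.6 and 18.3 RPKM in R+LE, the same order of groups as Alox5ap. It fell 4.15-fold with RANKL (limma adjusted p = 1.80e-08). Of the 6 leukotriene and lipoxin receptor genes 2 were tested, and Fpr2, a formyl peptide receptor that also binds lipoxin A4, fell with RANKL by a log2 difference of -1.81 ± 0.20 (limma adjusted p = 2.20e-06).

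Among the 8 other prostanoid synthase genes, of which 6 were tested, Tbxas1 was the only one called. Of all genes tested, 15.5% were called in +R against -R and 10.3% in R+LE against -R. Tbxas1, which encodes thromboxane A synthase, measured 56.6 and 53.6 RPKM in -R, 6.49 and 6.50 RPKM in +R and 13.3 and 9.45 RPKM in R+LE. Like Hpgds it fell with RANKL, by 7.94-fold (limma, Benjamini-Hochberg adjusted p = 7.50e-10), and was also lower in R+LE than in -R (log2 difference -2.24 ± 0.16, adjusted p = 3.49e-08). Ptgds, the other prostaglandin D synthase gene, had no reads in any library. Hpgd, which starts the breakdown of prostaglandins, fell with RANKL from 6.87 and 7.33 RPKM to 2.17 and 2.40 RPKM and measured 1.82 and 1.29 RPKM in R+LE (limma adjusted p = 3.90e-06 for +R against -R).

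Of the 9 prostanoid receptor genes 5 were tested. In +R against -R, 3 of these were called lower, where 8.92% of all genes tested were. Ptgir, the prostacyclin receptor gene, fell from 4.67 and 4.41 RPKM in -R to 0.646 and 0.782 RPKM in +R and measured 3.40 and 3.65 RPKM in R+LE (limma, Benjamini-Hochberg adjusted p = 5.53e-08 for RANKL). Ptger2, which encodes a prostaglandin E2 receptor, fell from 2.89 and 3.20 RPKM to 0.338 and 0.372 RPKM and measured 1.42 and 0.785 RPKM in R+LE (limma adjusted p = 1.52e-06). Ptger4, which encodes another receptor for the same lipid, fell from 6.84 and 6.93 RPKM to 2.89 and 3.20 RPKM and measured 4.32 and 3.93 RPKM in R+LE (limma adjusted p = 2.03e-05). These 3 genes shared the order of groups of Alox5ap, with R+LE between +R and -R. The genes Gm17173 and Gm49364, on the other strand, overlap 6.68% and 3.91% of the exon length of Ptger2.

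Of the 5 genes listed for the epoxyeicosanoid branch, which cytochrome P450 enzymes start and epoxide hydrolases end, 3 were tested. Cyp2s1 and Ephx1 rose with RANKL, where 6.58% of all genes tested were called higher. Cyp2s1 went from 1.37 and 0.902 RPKM in -R to 10.1 and 10.8 RPKM in +R and measured 1.69 and 1.51 RPKM in R+LE (limma, Benjamini-Hochberg adjusted p = 4.26e-09 for RANKL). Ephx2, the soluble epoxide hydrolase gene, measured 0.133 and 0.127, 2.60 and 2.11, and 0.481 and 0.257 RPKM in the same groups. Ephx2 passed the filter through +R alone, so its rise, included in the earlier count over the pathway list, is not read as a result. Ephx1, the microsomal hydrolase gene, measured 2.07 and 1.76, 4.58 and 5.58, and 10.2 and 8.48 RPKM, the same order of groups as Ptgs1, and was higher in R+LE than in -R by 2.03 ± 0.16 on the log2 scale (limma adjusted p = 1.01e-07).

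The genes whose levels ran most like those of Pla2g7 were ranked by Pearson's r of log2(RPKM + 0.5) over the 6 libraries, among the 2027 genes tested with a difference of at least 1 on the log2 scale between some pair of groups. With 6 points in 3 conditions r is a description only, and 22 genes reached 0.95. The closest were Tnfsf14 (r = 0.991), a cytokine of the TNF family, Epha2 (r = 0.991), an ephrin receptor, the antisense gene 1700071M16Rik (r = 0.989), which shares exon sequence with Pla2g7, Treml4 (r = 0.984), a receptor of the TREM family, and Gsta3 (r = 0.977), a glutathione transferase whose reads could be split with close relatives. Tnfsf14 measured 1.13 and 1.08 RPKM in -R, 0.699 and 0.612 RPKM in +R and 2.30 and 2.26 RPKM in R+LE. Epha2 measured 3.36 and 3.23, 2.34 and 2.12, and 7.16 and 7.34 RPKM in the same groups. Both, like Pla2g7, were lowest in +R and highest in R+LE without overlap. Of the other 7 tested genes of the group, Pla2g4a and Lta4h had no difference of 1 between groups and were not ranked. Their r with Pla2g7 was 0.976 for Pla2g4a and 0.397 for Lta4h, and that of the others was 0.711 for Ptgs1, 0.425 for Alox5, 0.416 for Alox5ap, 0.085 for Ltc4s and -0.08 for Hpgds.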

How the data were processed

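RNA from 6 libraries, 2 each of -R, +R and R+LE, grouped by the labels, was analysed. The authors deposited RPKM values per gene, with 1 transcript for each gene, from reads on exons of either strand counted with HOMER on mm10, under column titles that say FPKM. The study's methods name TopHat as the aligner, whereas the submitters' processing notes list HISAT2, HOMER and DESeq2. No versions are given in the sources used here. Of the gene symbols, 26 turned into dates by a spreadsheet were restored from transcript identifiers. The 10 genes, the gene lists and the motifs were chosen with earlier results of these data known.

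RPKM values were tested as log2(RPKM + 0.5) for the 11595 genes whose 6 libraries averaged 0.5 RPKM or more. limma 3.58.1 in R 4.3.3 fitted the 3 group means in one model using a variance trend and empirical Bayes moderation, with Benjamini-Hochberg adjustment over all genes tested. Calls required an adjusted p below 0.05 together with a change of 2-fold or more on the log2(RPKM + 0.5) scale. Falls given as a fold are on this scale, and ratios given as times compare mean RPKM. The scripts were tested on simulated data. Tables and figures were made in Python 3.11.15 (matplotlib 3.10.9, numpy 2.4.6, pandas 2.3.3). Whole reads, and with them depth, were worked out from the smallest steps of the RPKM values and the transcript lengths, and 99.992% of the low values checked came out whole in each library. Genes outside the group were named if on the pathway list and called in at least 1 comparison, if among the 5 most like Pla2g7, or as cell markers. Ptgds was named after its values were seen. Exon overlaps came from GENCODE M21 and promoters from RefSeq. The result for 1 called receptor gene is not reported here.

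The alternatives were pseudocounts of 0.1 and 1 RPKM, no filter, a minimum mean of 1 RPKM, quantile normalization, centring each library on its median, a replicate block, no variance trend, voom on the whole reads and leaving out each library. Scaling to the reads on genes without Rn45s was added after seeing the data.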

Additional observations from a re-analysis of the deposited data

How the results depend on the processing

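No alternative reversed the direction of any of the 8 genes in any comparison, and no count of called genes moved by more than 1.5 times. Over the alternatives the 8 genes gave 3 to 4 calls in +R against -R, 2 to 3 in R+LE against +R and 3 to 5 in R+LE against -R. Calls in R+LE against +R, and that of Pla2g7 in R+LE against -R, describe values that chose the group and are no test. The calls that changed were those near a 2-fold difference. Ptgs1 lost its call with RANKL without +R replicate 1 (0.95 on the log2 scale). Alox5ap lost its call in R+LE against +R without +R replicate 2 (0.99) or R+LE replicate 1 (0.98). In R+LE against -R, Alox5 lost its call with a pseudocount of 1 RPKM (0.88), without -R replicate 2 (0.99) and without R+LE replicate 1 (0.90), and Ltc4s gained one with a pseudocount of 0.1 RPKM (-1.06), with voom (-1.08), without -R replicate 1 (-1.04) and without R+LE replicate 1 (-1.26). Over all genes, calls ranged from 1518 to 2138, from 275 to 525 and from 956 to 1504 in the 3 comparisons, lowest with a pseudocount of 1 RPKM and highest with voom.

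With the replicate number as a block, the 8 genes gave the same 4, 3 and 4 calls and the other eicosanoid and PAF genes 13, 6 and 11. All genes gave 1801, 389 and 1200 calls, against 1797, 375 and 1192 without the block. Calls on values that chose the group are again no test. Deviations of same-numbered libraries correlated at -0.05 between -R and +R, 0.11 between -R and R+LE and 0.25 between +R and R+LE, and no label ties a number to a shared culture or day, so the libraries were not treated as paired. This does not show that same-numbered libraries have nothing in common. Depth limits Ptgs2 and Ptges most, with 28 to 85 and 27 to 97 reads per library.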
